A study of Mus musculus with 37 samples.

Results

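Thyroid hormone transport, activation and response in mouse brain were followed through 6 genes, chosen by symbol from the 56980 genes of the deposited count table. They were Slco1c1 (ENSMUSG00000030235), Dio2 (ENSMUSG00000007682), Thra (ENSMUSG00000058756), Thrb (ENSMUSG00000021779), Klf9 (ENSMUSG00000033863) and Hr (ENSMUSG00000022096). The set was picked because Slco1c1 was lower in mice given antibiotics, so antibiotic differences of the 6 genes are given as descriptions with no test. Their differences with age and with morphine were not used in the choice and were tested. Tests of Slco1c1 within a single drink use part of the values that the choice compared. All 6 genes passed the filter on low counts, with lowest counts per library from 255 for Hr to 7258 for Thra.

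The thyroid gland secretes mainly thyroxine, which acts as a precursor in the brain. Slco1c1 encodes OATP1C1, a transporter that carries thyroxine across the blood-brain barrier in rodents and is made by brain endothelium and astrocytes. Dio2 encodes the deiodinase of astrocytes that converts thyroxine to triiodothyronine, the hormone that binds the nuclear receptors encoded by Thra and Thrb. Klf9, a zinc finger transcription factor, and Hr, the nuclear receptor corepressor Hairless, are induced by triiodothyronine in brain, and Klf9 also responds to glucocorticoids.

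Polyadenylated RNA was sequenced from male wild type C57BL/6J mice in 37 libraries, with brain named as the tissue in the sample labels and the medial prefrontal cortex named in the series title. Treatment began on postnatal day 25 in adolescents and on postnatal day 55 in adults, mice drank water or received oral antibiotics, and subcutaneous injections over 5 days were of saline or of morphine (15 mg/kg). Libraries with at least 1000000 counts numbered 5 for adolescents on water with saline, 5 for adolescents on water with morphine, 3 for adolescents on antibiotics with saline and 5 for adolescents on antibiotics with morphine. In adults these numbers were 3 on water with saline, 5 on water with morphine, 5 on antibiotics with saline and 4 on antibiotics with morphine. The antibiotics themselves are not named in the labels. The labels do not say whether replicates came from separate mice, so p-values measure the spread between these libraries, which may be technical.

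These 35 libraries held 10630727 to 31560468 counts, and 2 near-empty libraries on antibiotics, at 25165 and 58764 counts, were left out. Markers of cortical excitatory neurons summed to 2017 to 2515 CPM (counts per 1e+06 counts of the library) in 34 libraries and to 1579 CPM in adolescent water saline replicate 1. That library stood apart, with striatal markers at 1228 CPM against 133 to 190 CPM elsewhere and oligodendrocyte markers at 18541 CPM against 1151 to 6167 CPM. Hypothalamic and tanycyte markers summed to 1.71 to 5.01 CPM in the 35 libraries and choroid plexus markers to 1.69 to 43.3 CPM. Reads of pancreatic islet hormones were present in 7 libraries, all adolescent, with 319 to 735 counts of Ins2.

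Compared per kilobase of exon, Thra was the most abundant of the 6 genes, at 155 ± 16.9 CPM per kilobase (SD, n = 35). Klf9 followed at 55.2 ± 4.35 CPM per kilobase. Dio2 at 12.3 ± 2.85, Thrb at 10.4 ± 0.761 and Slco1c1 at 9.27 ± 1.56 CPM per kilobase were neighbours whose SDs overlapped. Hr was lowest, at 5.13 ± 0.871 CPM per kilobase. Group means in CPM spanned 1.79-fold for Dio2, 1.51-fold for Slco1c1, 1.36-fold for Hr, 1.28-fold for Thra, 1.20-fold for Klf9 and 1.17-fold for Thrb. For Slco1c1 this range rests on the antibiotic split on which the set was picked. Within groups, the SD of log2 CPM was largest for Hr at 0.235 and smallest for Klf9 at 0.0845.

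The 250 bases before the start of Slco1c1 and of Dio2 are shown because the levels of these 2 genes varied together among libraries of the same group. RefSeq gave the sequences on the GRCm38.p6 build, for Slco1c1 at chr6:141524104-141524353 on the plus strand and for Dio2 at chr12:90739039-90739288 on the minus strand. Capitals mark matches to TGACGTCA, the palindromic cyclic AMP response element, and to the TATA box TATAAA.
Slco1c1: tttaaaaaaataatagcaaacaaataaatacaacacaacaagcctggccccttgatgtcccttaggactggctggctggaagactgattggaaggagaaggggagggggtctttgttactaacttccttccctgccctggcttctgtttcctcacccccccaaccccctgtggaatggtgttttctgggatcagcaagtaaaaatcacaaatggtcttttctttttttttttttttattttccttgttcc
Dio2: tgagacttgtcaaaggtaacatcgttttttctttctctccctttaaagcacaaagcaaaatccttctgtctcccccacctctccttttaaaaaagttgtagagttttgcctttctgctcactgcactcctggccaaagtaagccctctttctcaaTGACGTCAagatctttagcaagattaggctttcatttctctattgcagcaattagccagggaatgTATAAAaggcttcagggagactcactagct
The Dio2 stretch held TGACGTCA from 95 to 88 bases before the start and TATAAA from 30 to 25 bases before it. TGACGTCA was present on either strand in 1.55% of 32851 RefSeq promoter stretches of this length, and TATAAA in 12.4%. Both motifs were added after the sequences had been seen. The bases just after the RefSeq start of Dio2 were not found in its GENCODE M21 transcripts, so its distances hold for the RefSeq start alone. The letters AGGTCA of a nuclear receptor element were found in neither stretch and in 14% of all promoters. Of the other members, Thrb and Klf9 were also in the table. Klf9 held none of the 5 motifs searched, and a Thrb start held the nuclear receptor letters from 184 to 179 bases before it. Another Thrb start held the letters TATAAA from 167 to 162 bases before it, letters present in 12.4% of all promoters. It also held the E-box CACGTG of clock factors, which was present in 6.02% of all promoters. A direct repeat of AGGTCA with 4 bases between, as bound by thyroid hormone receptors, was in none of these stretches. It was present in 0.0152% of all promoters.

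Slco1c1 was lower in mice given antibiotics at both ages and with both injections. Adolescents on water with saline measured 55.9, 55.6, 67.7, 59.6 and 54.4 CPM, and adolescents on antibiotics with saline measured 46.8, 49.0 and 54.6 CPM. With morphine, adolescents on water measured 58.0, 53.0, 49.4, 55.0 and 53.6 CPM, against 37.7, 43.9, 40.3, 45.1 and 39.1 CPM on antibiotics. The saline groups overlapped, since 54.6 CPM on antibiotics lay above the lowest water library at 54.4 CPM, and the morphine groups did not. In adults with saline the values were 51.3, 55.4 and 50.5 CPM on water and 39.7, 34.4, 41.2, 42.4 and 38.5 CPM on antibiotics. In adults with morphine they were 51.1, 53.4, 52.1, 53.1 and 45.2 CPM on water and 42.5, 30.3, 42.9 and 39.6 CPM on antibiotics. Neither pair of adult groups overlapped. Genes lower with no overlap made up 2.28% of all genes in adolescents with morphine, 3.42% in adults with saline and 2.60% in adults with morphine.

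The log2 difference of Slco1c1, antibiotics minus water, was -0.35 (SE 0.04) averaged over the 4 combinations of age and injection, a fold of 0.782. It was -0.22 in adolescents with saline, -0.38 in adolescents with morphine, -0.42 in adults with saline and -0.39 in adults with morphine. Of the 17 antibiotics libraries, 14 lay below the lowest of the 18 water libraries. Over all 19332 genes tested, 10.2% passed an adjusted p of 0.05 (edgeR quasi-likelihood test) for the averaged antibiotic difference. Because the set was picked on this contrast, nothing is read from that share. In bulk RNA, fewer cells of a type and less RNA per cell cannot be told apart.

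Dio2 was also lower with antibiotics. Its log2 difference, antibiotics minus water, averaged -0.46 (SE 0.06), a fold of 0.729. Adolescents on water with saline measured 76.0, 86.2, 126.8, 99.1 and 86.8 CPM, against 64.9, 67.8 and 78.7 CPM on antibiotics. With morphine, adolescents measured 80.6, 77.7, 79.3, 90.1 and 74.0 CPM on water and 60.8, 59.3, 56.7, 62.2 and 58.7 CPM on antibiotics. Adolescent groups overlapped with saline and did not overlap with morphine.

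In adults with saline Dio2 measured 87.5, 86.9 and 71.3 CPM on water and 56.5, 58.2, 60.8, 60.1 and 51.6 CPM on antibiotics. In adults with morphine it measured 82.3, 73.4, 74.7, 80.4 and 54.0 CPM on water and 54.7, 41.7, 64.1 and 52.1 CPM on antibiotics. The adult saline groups did not overlap, and the adult morphine groups overlapped through the water library at 54.0 CPM. The log2 difference was -0.43 in adolescents with saline, -0.43 in adolescents with morphine, -0.51 in adults with saline and -0.45 in adults with morphine. Without adolescent water saline replicate 1, the library that stood apart, the averaged difference was -0.48 for Dio2 and -0.36 for Slco1c1. Dio2 and Slco1c1 were both lower with no overlap in adolescents with morphine and in adults with saline.

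**Figure D1:**
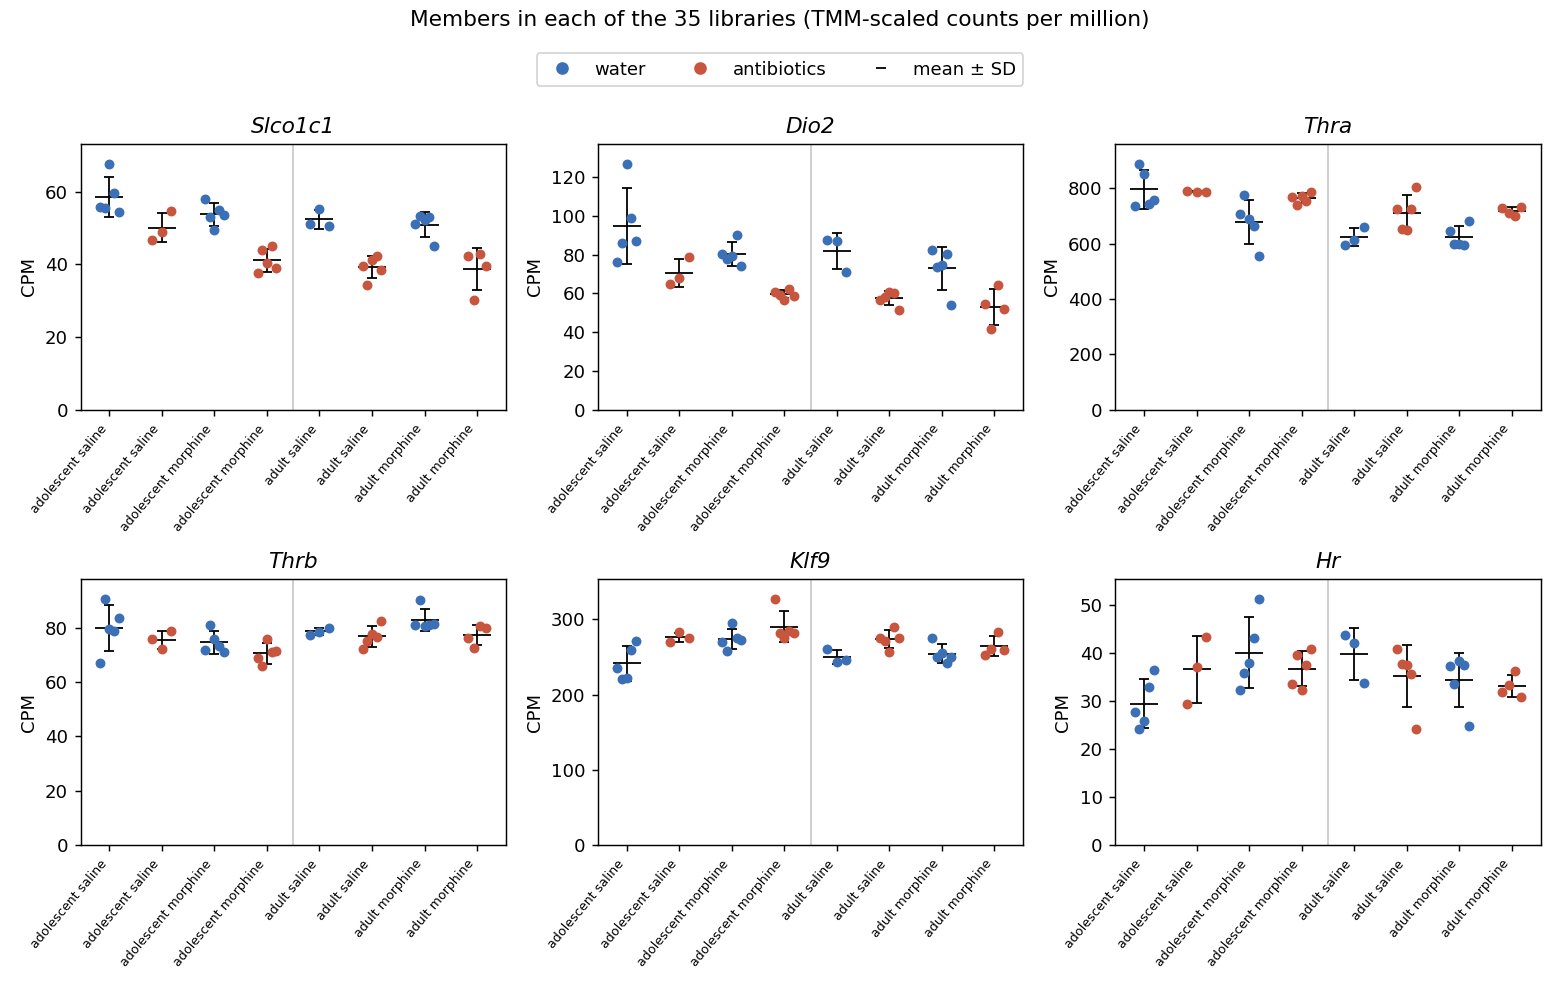
CPM (vertical axis, from 0) of the 6 genes in each of the 8 groups (horizontal axis), with 1 point per library and the group mean with its SD. Slco1c1 runs from 30.3 to 67.7 CPM and Dio2 from 41.7 to 126.8 CPM, with the antibiotics groups low in both, while Thrb and Klf9 stay within a narrow band.

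Both genes are expressed by astrocytes, so astrocyte markers are given beside them. Of 10 astrocyte markers, 3 fell and 1 rose with antibiotics (edgeR quasi-likelihood test, adjusted p under 0.05), where 10.2% of all genes passed. Aqp4, the water channel of astrocyte endfeet, was at 79.1 ± 13.5 CPM (SD, n = 18) on water and 57.1 ± 7.90 CPM (n = 17) on antibiotics. Its log2 difference was -0.46 (edgeR adjusted p = 3.05e-05). The glutamate transporters Slc1a3 and Slc1a2 fell by 0.14 and 0.12 on the log2 scale, and Gjb6, which encodes the gap junction protein connexin 30, rose by 0.28. The 10 markers summed to 3574 to 4492 CPM on water (median 4009) and to 3477 to 4178 CPM on antibiotics (median 3658), ranges that overlapped. Slc1a2 alone averaged 2840 CPM over the 35 libraries and Slc1a3 449 CPM, so the astrocyte sum follows mainly Slc1a2.

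Endothelium is the other site of Slco1c1 expression. Of 12 endothelial markers, Itm2a fell by 0.24 on the log2 scale and none rose, a share near the 10.2% of all genes that passed. Their sum ran from 369 to 454 CPM on water (median 387) and from 336 to 503 CPM on antibiotics (median 372). Of 5 microglial markers 4 fell. The part of these marker changes in the Slco1c1 and Dio2 differences was not tested.

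The receptor genes overlapped widely between water and antibiotics. Thra, counted here over all its isoforms, measured 687 ± 92.2 CPM (SD, n = 18) on water and 742 ± 46.3 CPM (n = 17) on antibiotics, and all 17 antibiotics libraries lay inside the water range. Its log2 difference averaged 0.14 (SE 0.04). It was -0.01 in adolescents with saline, 0.17 in adolescents with morphine, 0.19 in adults with saline and 0.20 in adults with morphine. In adults with morphine the groups did not overlap, at 595 to 682 CPM on water and 699.7 to 731 CPM on antibiotics, as for 2.96% of all genes that were higher there. Thrb measured 79.1 ± 5.99 CPM on water and 74.9 ± 4.45 CPM on antibiotics, a log2 difference of -0.07 (SE 0.03), and 1 antibiotics library lay below the water range.

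The response genes were not lower together with the transporter and the deiodinase. Klf9 measured 255.8 ± 19.5 CPM (SD, n = 18) on water and 276.8 ± 16.9 CPM (n = 17) on antibiotics, a log2 difference of 0.11 (SE 0.03), with 1 antibiotics library above the water range. By combination it was 0.19 in adolescents with saline, 0.08 in adolescents with morphine, 0.13 in adults with saline and 0.05 in adults with morphine. Hr measured 35.5 ± 7.13 CPM on water and 35.5 ± 4.82 CPM on antibiotics, a log2 difference of -0.01 (SE 0.08). Its difference was 0.31 in adolescents with saline and -0.12, -0.18 and -0.05 in the other 3 combinations, in the order above. As Klf9 also responds to glucocorticoids, 10 glucocorticoid-induced genes are given beside it. Of these 2 rose with antibiotics, where 10.2% of all genes passed, Fkbp5 by 0.74 and Plin4 by 1.59 on the log2 scale. The sum of the 10 genes ran from 349 to 494 CPM on water (median 392) and from 382 to 518 CPM on antibiotics (median 457). Their part in the Klf9 difference was not tested.

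**Figure D2:**
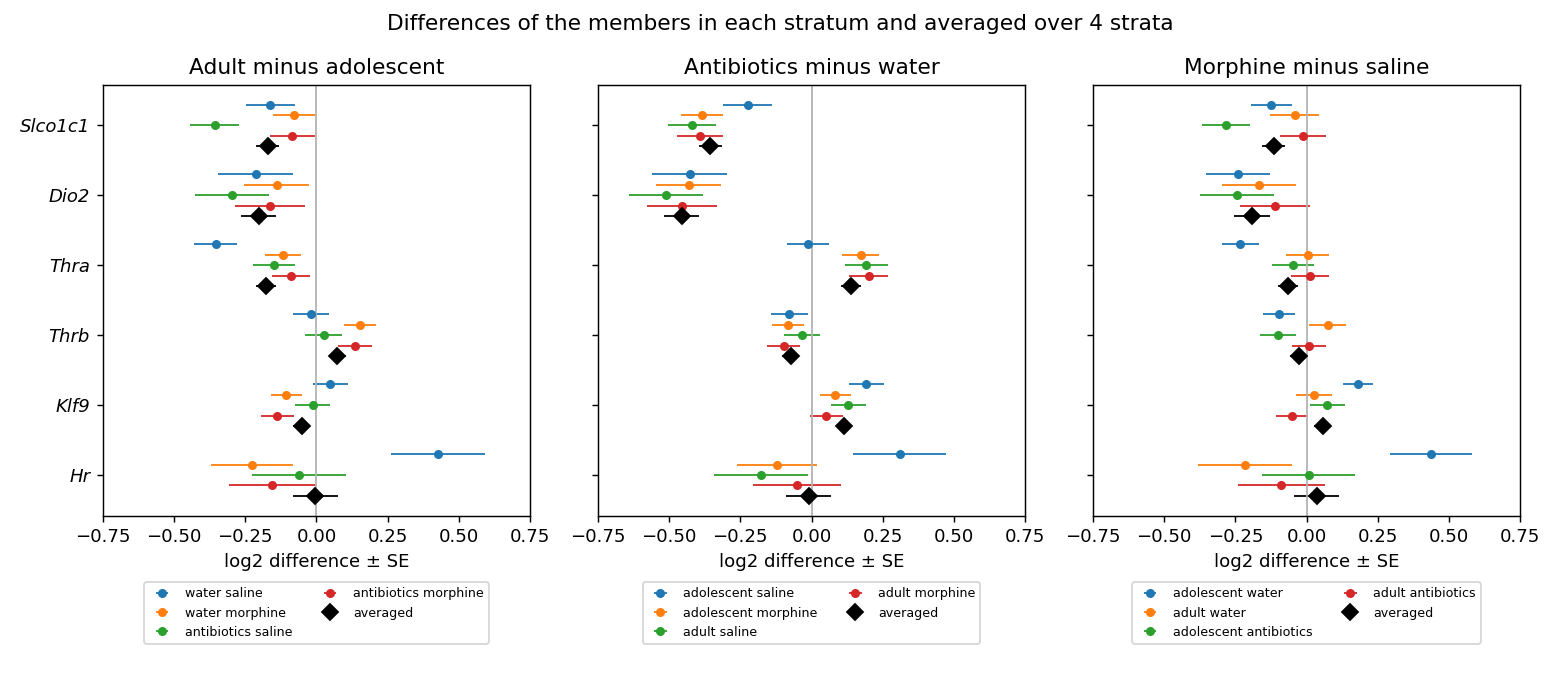
Log2 differences (horizontal axis) of the 6 genes for antibiotics, age and morphine, averaged over the other factors and in each combination, with bars for the SE. Slco1c1 and Dio2 lie below 0 for antibiotics at -0.35 and -0.46 and for age at -0.17 and -0.20, and Hr lies near 0 in both averages.

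Age was tested next, since the design compares adolescent with adult mice under the same treatments. Averaged over the 4 treatments, Slco1c1, Dio2 and Thra were lower in adults, and 3 of 6 members passed where 20.3% of all genes did and 11.2% passed as lower. Slco1c1 measured 51.0 ± 7.83 CPM (SD, n = 18) in adolescents and 44.9 ± 7.34 CPM (n = 17) in adults. Its log2 difference was -0.17 (SE 0.04, edgeR adjusted p = 0.00259). By treatment it was -0.16 on water with saline, -0.08 on water with morphine, -0.36 on antibiotics with saline and -0.08 on antibiotics with morphine. The average thus draws most on antibiotics with saline, whose Slco1c1 values entered the choice of the set. Dio2 measured 77.0 ± 17.4 CPM in adolescents and 65.3 ± 13.7 CPM in adults, a log2 difference of -0.20 (SE 0.06, edgeR adjusted p = 0.0199). Thra measured 753 ± 72.0 CPM in adolescents and 672 ± 61.3 CPM in adults, a log2 difference of -0.18 (SE 0.04, edgeR adjusted p = 0.000379). Slco1c1 and Thra passed whichever of the 35 libraries was left out. Dio2 missed the threshold without adolescent antibiotics saline replicate 5, at an edgeR adjusted p of 0.0589. Beside these changes, 1 astrocyte marker of 10 rose and 1 fell in adults, and their sum ran from 3531 to 4439 CPM in adolescents and from 3477 to 4492 CPM in adults. Of 12 endothelial markers 1 rose and 2 fell, with sums of 345 to 454 CPM and 336 to 503 CPM. Of 6 cortical excitatory neuron markers 1 fell. Their sums were 1579 to 2515 CPM in adolescents (median 2377) and 2025 to 2245 CPM in adults (median 2137). Of 5 microglial markers 4 fell, with sums of 249.5 to 350 CPM and 218 to 299.6 CPM, and all 4 tested islet genes fell, among them Sst, which cortical interneurons also express. The part of these markers in the age differences was not tested.

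The other 3 members did not pass for age. The log2 difference, adult minus adolescent, was 0.07 for Thrb (95% interval 0.01 to 0.13, edgeR adjusted p = 0.0869), -0.05 for Klf9 (-0.11 to 0.01, adjusted p = 0.213) and -0.00 for Hr (-0.16 to 0.16, adjusted p = 0.977). Thrb passed in 1 of 35 fits, without adolescent water saline replicate 2 (edgeR adjusted p = 0.0297). Thra overlaps the circadian repressor gene Nr1d1 by 263 bases on the opposite strand, and no source used here states whether reads were counted by strand. Nr1d1 was also lower in adults, at 309 ± 23.4 CPM in adolescents and 282 ± 21.4 CPM in adults (edgeR adjusted p = 0.000388). The part of the shared bases in the Thra difference was not tested. Dio2 overlaps the predicted gene Gm26512 by 100 bases on the opposite strand.

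Within single treatments, 2 of 24 age tests of members passed. On water with saline, Thra was 737 to 888 CPM in 5 adolescent libraries and 595 to 659 CPM in 3 adult libraries. These groups did not overlap, as for 5.91% of all genes that were lower there, and the log2 difference was -0.35 (SE 0.07, edgeR adjusted p = 0.00543), in a comparison where 3.39% of all genes passed. The call was lost without adult water saline replicate 1 (adjusted p = 0.0694) or replicate 3 (0.0533), and with only these 2 groups in the fit (0.145). On antibiotics with saline, Slco1c1 was 46.8 to 54.6 CPM in 3 adolescent libraries and 34.4 to 42.4 CPM in 5 adult libraries, again with no overlap, as for 6.68% of all genes that were lower. Dio2 did not overlap there either and did not pass, at -0.30 (edgeR adjusted p = 0.28). The Slco1c1 log2 difference was -0.36 (SE 0.09, edgeR adjusted p = 0.024), where 1.39% of all genes passed. That call was lost without adolescent antibiotics saline replicate 2 (adjusted p = 0.0923) or replicate 5 (0.235), or without adult antibiotics saline replicate 2 (0.0848). Both groups were on antibiotics, and low Slco1c1 on antibiotics was the ground for picking the set. The p-value of Slco1c1 there is therefore not free of that choice. On water with morphine and on antibiotics with morphine 0 members passed, where 0.626% and 1.87% of all genes did, and 1 and 2 of 6 members had an unadjusted p under 0.05, against 11.8% and 15.7% of all genes. Thra was lower in adults with no overlap on antibiotics with morphine, as for 4.15% of all genes, at a log2 difference of -0.09 (edgeR adjusted p = 0.569).

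Morphine changed no member past the threshold. Averaged over the 4 combinations of age and drink, 0 of 6 members passed (edgeR quasi-likelihood test), as did 0 of 6 with DESeq2, and 0.316% of all genes passed in edgeR. At an unadjusted p under 0.05 there were 2 of 6 members and 11% of all genes. These 2 were Dio2, with a log2 difference of -0.19 (SE 0.06, unadjusted p = 0.00457, edgeR adjusted p = 0.192), and Slco1c1, at -0.11 (SE 0.04, unadjusted p = 0.0076, adjusted p = 0.233). The differences of Thra (-0.07), Thrb (-0.03), Klf9 (0.06) and Hr (0.04) had edgeR adjusted p-values of 0.480 to 0.909.

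In single combinations 0 of 24 morphine tests of members passed in edgeR, with 0.331% of all genes passing in adolescents on water, 0.0466% in adolescents on antibiotics and 0 in adults. Adolescents on water had 4 of 6 members at an unadjusted p under 0.05, against 11.6% of all genes. There the log2 difference, morphine minus saline, was -0.23 for Thra (edgeR adjusted p = 0.103), 0.18 for Klf9 (0.130), 0.44 for Hr (0.177) and -0.24 for Dio2 (0.399). Hr measured 27.7, 24.2, 25.9, 32.9 and 36.6 CPM with saline and 32.4, 35.9, 37.9, 43.2 and 51.4 CPM with morphine, and the 2 groups overlapped. Klf9 measured 235, 221, 222, 260 and 272 CPM with saline and 269, 258, 295, 276 and 272 CPM with morphine, also with overlap. Of the 10 glucocorticoid-induced genes, 2 rose with morphine in these adolescents, where 0.331% of all genes passed. Their sum ran from 350 to 393 CPM with saline and from 391 to 474 CPM with morphine. The part of these genes in the Klf9 difference was not tested. Thra passed there in DESeq2 (adjusted p = 0.0429) and in edgeR without adolescent water morphine replicate 2 (adjusted p = 0.0359), and Klf9 without adolescent water saline replicate 5 (adjusted p = 0.021). In adolescents on antibiotics 3 of 6 members were lower with morphine with no overlap, as were 4.43% of all genes, and none of the 3 passed. They were Slco1c1 at a log2 difference of -0.28 (edgeR adjusted p = 0.285), Dio2 at -0.24 (0.699) and Thra at -0.05 (0.926). In adults on water Thrb was higher with no overlap, as for 1.83% of all genes, at 0.07 (95% interval -0.06 to 0.21). Of the 3 genes in adolescents on antibiotics, Slco1c1 passed there only with these 2 groups alone in the fit (adjusted p = 0.0493).

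The title of the series raises whether effects depend on age, so the age by morphine interaction, averaged over water and antibiotics, was tested for each member. In edgeR 0 of 6 members passed, as in DESeq2, and 0.00517% of all genes did. At an unadjusted p under 0.05 there were 5 of 6 members, against 6.32% of all genes. Morphine differences in adults minus those in adolescents were -0.37 for Hr (95% interval -0.69 to -0.05), -0.14 for Klf9 (-0.26 to -0.02), 0.14 for Thrb (0.02 to 0.26), 0.18 for Slco1c1 (0.01 to 0.34), 0.15 for Thra (0.01 to 0.29) and 0.10 for Dio2 (-0.15 to 0.36) on the log2 scale. Their edgeR adjusted p-values ran from 0.731 to 0.923.

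Libraries of the same group were compared next, with the group means removed. Deviations of log2 CPM from the group mean were correlated over 35 libraries for 19 relations, with permutation of libraries within groups and Benjamini-Hochberg adjustment over the 19. Slco1c1 and Dio2 deviated together, with Pearson r = 0.727 (permutation p = 0.00024, adjusted 0.00152) and Spearman rho = 0.675 (permutation p = 0.00017, adjusted 0.00247). Without the 2 libraries farthest from the median in Slco1c1, chosen without regard to Dio2, r was 0.621. It was 0.797 in the 18 water libraries, 0.765 in the 17 antibiotics libraries, 0.704 in adolescents and 0.745 in adults. It was 0.758 in the 28 libraries without islet reads and 0.370 in the 7 with them.

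The summed level of astrocyte markers, most of it from Slc1a2, varied with both genes. The farthest libraries are here those farthest from the median in Slco1c1 or Dio2, without regard to the marker sum. The astrocyte marker sum correlated with Slco1c1 at r = 0.640 (permutation p = 4e-05, adjusted 0.000475) and rho = 0.622 (permutation p = 0.00026, adjusted 0.00247), and r was 0.623 without the 2 farthest libraries. With Dio2 it correlated at r = 0.624 (permutation p = 0.0008, adjusted 0.0038) and rho = 0.520 (permutation p = 0.00813, adjusted 0.0309), and at 0.512 without the 2 farthest. In the 28 libraries without islet reads the astrocyte r was 0.664 for Slco1c1 and 0.677 for Dio2, and in the 7 with them 0.431 and 0.044. The endothelial sum correlated with Slco1c1 at r = 0.581 (permutation p = 0.0131, adjusted 0.0497) and rho = 0.539 (permutation p = 0.00442, adjusted 0.021), and at 0.465 without the 2 farthest. With Dio2 the endothelial r of 0.341 did not pass (permutation p = 0.129, adjusted 0.272). Whether the 2 genes move together beyond the astrocyte markers was not tested.

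Thra and Hr deviated in opposite directions, with r = -0.714 (permutation p = 5e-05, adjusted 0.000475) and rho = -0.618 (permutation p = 0.00067, adjusted 0.00424). Without the 2 libraries farthest from the median in Thra, chosen without regard to Hr, r was -0.700. It was -0.788 on water, -0.602 on antibiotics, -0.672 in adolescents, -0.784 in adults, -0.708 without islet reads and -0.793 with them. In adolescents on water with morphine, for example, the library with the lowest Thra, 556 CPM, had the highest Hr, 51.4 CPM. None of the other 13 relations among the 6 genes passed in Pearson's r. The nearest to it were Thra with Thrb (r = 0.452, adjusted permutation p = 0.0771) and Dio2 with Hr (r = 0.387, adjusted permutation p = 0.0959).

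**Figure D3:**
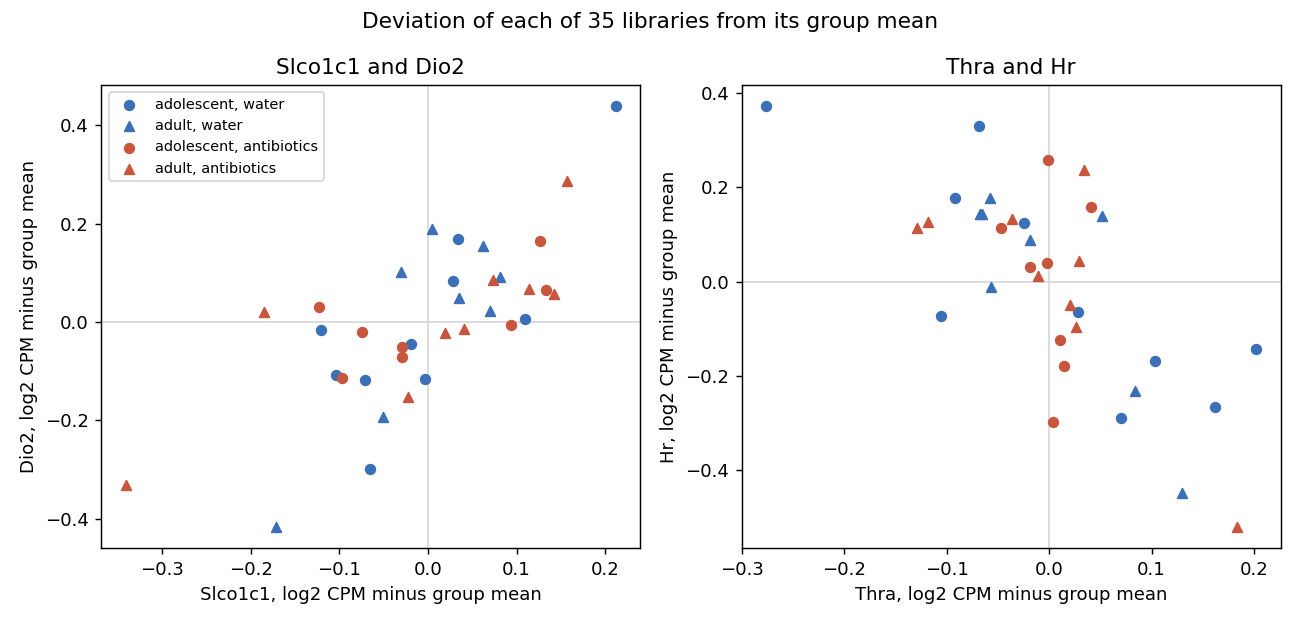
Deviations of log2 CPM from the group mean for Slco1c1 against Dio2 and for Thra against Hr, with 1 point per library. The first pair rises together (r = 0.727) and the second runs in opposite directions (r = -0.714).

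Over all 35 libraries, group differences included, the genes most like each member were named from 11218 genes by Pearson's r of log2 CPM. Dio2 was the nearest gene to Slco1c1 and Slco1c1 the nearest to Dio2, at r = 0.919. Next to Slco1c1 came the microglial receptor gene Fcrls (0.889) and the astrocyte and precursor cell phosphatase gene Ptprz1 (0.883). Next to Dio2 came the kinase gene Akt2 (0.887) and Fcrls (0.862). With antibiotics the averaged log2 difference was -0.43 for Fcrls, -0.23 for Ptprz1 and -0.34 for Akt2. The r values of Slco1c1 and Dio2 therefore include the contrast on which the set was picked. Thra was nearest to Timp2 (0.891), Cotl1 (0.888) and Gpi1 (0.883), Thrb to Fam8a1 (0.767), Fmn2 (0.763) and Mindy2 (0.752), and Klf9 to Zfp91 (0.793) and Krt222 (0.783). Hr was nearest to the transcription factor gene Scrt1 (0.816), Tmem215 (0.809) and the neurofilament gene Nefm (0.808). All points share their libraries and normalisation, and these values are descriptions.

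The rest of the pathway was followed in 4 lists holding 47 genes, of which 44 passed the filter on low counts. Dio1, Ttr and Ugt1a1 did not. With age, 8 of the 44 rose and 6 fell in adults (edgeR, adjusted p under 0.05), where 20.3% of all genes passed. Of 8 other transporters, 3 fell and 1 rose. Among those that fell were the amino acid transporter genes Slc7a8 (log2 difference -0.14, edgeR adjusted p = 0.00529) and Slc7a5 (-0.12, adjusted p = 0.0141). Slco4a1, an organic anion transporter gene at about 2 to 3 CPM, rose by 0.47 on the log2 scale (adjusted p = 0.00325). Slc7a5 missed the threshold without adolescent antibiotics saline replicate 1 (adjusted p = 0.0545).

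Of 14 receptor partners and coregulators, 7 rose in adults, 1 fell and 6 did not pass, with a median log2 difference over the 14 of 0.10 against 0.00 for all genes. The corepressor gene Ncor1 rose by 0.14 (edgeR adjusted p = 2.94e-05), and the coactivator genes Ncoa1 by 0.13 (5.16e-05) and Ncoa2 by 0.11 (0.00119), while the retinoid X receptor gene Rxrb fell by 0.14 (0.000293) on the log2 scale. Over all genes, 11.2% passed as lower with age and 20.3% in either direction. Of 18 thyroid hormone responsive genes of brain, 2 fell, near that first share, and none rose, with a median of -0.04. They were Gpd2, a mitochondrial glycerol phosphate dehydrogenase gene (-0.12, edgeR adjusted p = 0.00326), and the clock output gene Dbp (-0.10, adjusted p = 0.0201). Dbp missed the threshold without adult water saline replicate 1 (0.0766), adult water saline replicate 3 (0.0522) or adolescent antibiotics saline replicate 5 (0.0823). Of 15 clock genes tested, which include Dbp itself and Nr1d1, 8 rose and 3 fell with age, where 20.3% of all genes passed. None of the 4 tested genes of deiodination, binding and metabolism passed.

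With antibiotics, 3 of the 44 pathway genes rose and 4 fell, where 10.2% of all genes passed. Sult1a1, a sulfotransferase gene, measured 6.16 ± 1.76 CPM on water and 9.66 ± 3.22 CPM on antibiotics and rose by 0.64 on the log2 scale (edgeR adjusted p = 0.000256). Rxra, a receptor partner, rose by 0.19 (edgeR adjusted p = 0.000167).

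Among the 18 responsive genes, 1 rose and 3 fell with antibiotics, where 10.2% of all genes passed. Flywch2 rose by 0.36 (edgeR adjusted p = 0.00259), while Gpd2 fell by 0.14 (0.000943), the lipogenesis gene Thrsp by 0.24 (0.00741) and the cholesterol transfer gene Stard4 by 0.15 (0.03) on the log2 scale. Stard4 missed the threshold without adolescent antibiotics saline replicate 2 (0.0583) or 5 (0.0605), or without adult antibiotics morphine replicate 2 (0.0562). The median of the 18 was -0.08, against -0.00 for all genes. Gpd2 fell both with age and with antibiotics. With morphine, 0 of the 44 passed in edgeR and 0 in DESeq2, with 12 of 44 at an unadjusted p under 0.05, against 11% of all genes.

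**Figure D4:**
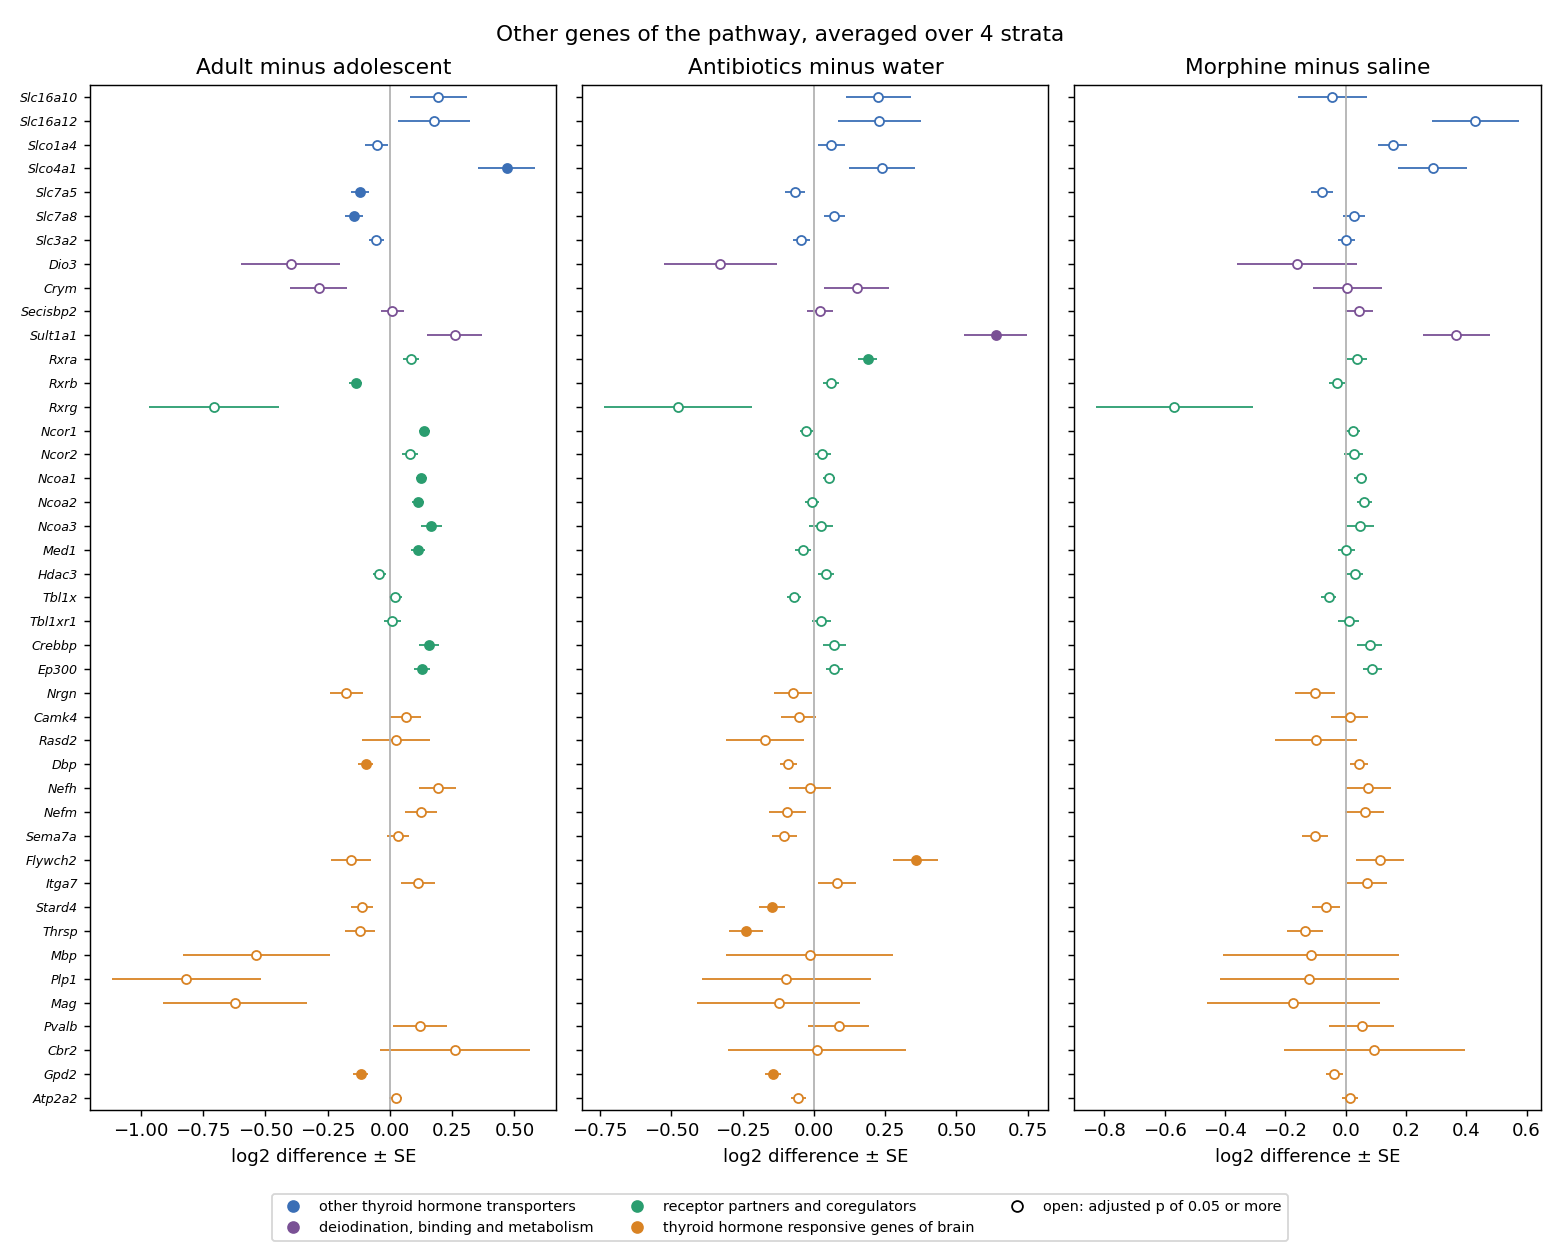
Log2 differences (horizontal axis) of 43 of the 44 tested pathway genes, by list, for age, antibiotics and morphine, with filled points for genes past the adjusted threshold. Filled points are seen for 13 genes with age, 6 with antibiotics and 0 with morphine.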

How the data were processed

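The authors deposited raw read counts per gene for 37 libraries. RNA was extracted with the RNeasy Mini kit, per the labels' protocols, and the tools listed in the submitters' processing notes are STAR 2.7.10a and DESeq2, with mm10 as the build. No source used here gives the strandedness of the counting or the annotation release. Symbols and exon lengths came from GENCODE M21, which matched 52073 of 56980 identifiers (the other 4907 hold 3.86% of counts), and 52036 of those matched have a later version number than M21 gives them. Exon lengths may therefore differ from those counted.

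The main tests came from edgeR 4.0.16 in R 4.3.3, with TMM scaling, the filterByExpr filter and 1 robust quasi-likelihood fit with a mean per group. The 35 libraries with at least 1000000 counts entered it, and 19332 genes were tested with Benjamini-Hochberg adjustment and a threshold of 0.05. CPM values use TMM-scaled totals. Tests are two-sided, and correlations used 100000 permutations.

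The 6 genes and all gene lists were chosen with earlier results of these data known. Named are the 6 members, up to 4 passing genes per pathway list and averaged contrast by smallest p, the markers beside a result and the 3 genes nearest each member. Of these, 2 genes are not reported here, and counts over the lists include them where they belong. Alternatives were DESeq2 1.42.0, its size factors, no filter, all 37 or 34 libraries, the compared groups alone, the replicate number as a block, each library left out, and, chosen after seeing the data, a term for islet reads. The procedure was tested on simulated data. No 2 replicates agreed within sampling noise (chi-square per degree of freedom 1.78 to 65.0).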

Additional observations from a re-analysis of the deposited data

Results flagged for a closer look

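Among 36 combinations of member and group with 4 or more libraries, 3 held a library far from the others of its group, and chance alone marks about 1 in 20 such combinations. Klf9 was at 327 CPM in adolescent antibiotics morphine replicate 1, against 275.3 to 284.6 CPM in the other 4 libraries. Slco1c1 was at 45.2 CPM in adult water morphine replicate 5, against 51.1 to 53.4 CPM in the others, and this library also had the lowest Dio2 of its group, at 54.0 CPM. Thrb was at 90.2 CPM in adult water morphine replicate 2, against 80.7 to 81.5 CPM in the others.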

How the results depend on the processing

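Averaged over treatments, 3 members passed for age under all 7 alternatives that keep the libraries together and 2 to 4 when 1 library was left out. Pathway calls ran from 14 to 19 for age and 6 to 9 for antibiotics under these alternatives, and from 13 to 19 and 5 to 9 with 1 library left out. Within single treatments the 2 age calls of members became 1 to 2 with 1 library left out, and the 0 morphine calls became 0 to 1. The morphine count was 1 with DESeq2 and 1 in fits of the compared pair alone. In such fits, the age difference of Dio2 on antibiotics with saline also passed (edgeR adjusted p = 0.0442).

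Differences near 0 changed sign. That of Hr with age was 0.00201 with DESeq2, 0.0053 with the islet term, 0.0034 with 37 libraries and 0.000917 with the replicate block, and ran from -0.0345 to 0.0331 with 1 library left out. With the block, morphine differences were -0.0182 for Hr in adolescents on antibiotics and 0.0042 for Slco1c1 in adults on antibiotics. Klf9 with age on antibiotics with saline was 0.0132 with the islet term, and Thra with morphine in adults on water was -0.0021 in 34 libraries. With 1 library left out, age differences ran from -0.0671 to 0.0301 for Thrb on water with saline. On antibiotics with saline they ran from -0.0048 to 0.0559 for Thrb, -0.0318 to 0.0138 for Klf9 and -0.191 to 0.0796 for Hr, and on antibiotics with morphine from -0.134 to 0.0163 for Slco1c1. Morphine differences in adults on water ran from -0.0662 to 0.000946 for Slco1c1, -0.0331 to 0.0468 for Thra and -0.0045 to 0.0540 for Klf9. In adults on antibiotics they ran from -0.0610 to 0.0864 for Slco1c1, -0.0223 to 0.0581 for Thra and -0.0126 to 0.0374 for Thrb, and in adolescents on antibiotics from -0.124 to 0.146 for Hr. The cause was not tested.

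No clear pairing of the libraries by replicate number was seen. Deviations of same-numbered libraries had a median correlation of 0.0055, from -0.23 to 0.28, with 14 of 108 pairs over 0.1. For libraries of different number the median was 0.00078. Of the libraries, 25.7% correlated best with their own number, and no share expected by chance is given for comparison. With the replicate block, 3 members passed for age, 2 within single treatments and 0 for morphine and for age by morphine, and 17, 0 and 7 pathway genes passed for age, morphine and antibiotics. DESeq2 gave no adjusted p for Dio3 with morphine in adolescents on water. The lowest member count in a library was 255, for Hr.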

Other observations

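Dio3, which encodes the deiodinase that inactivates thyroid hormone, was singled out after its values were seen. It measured 1.49 ± 0.639 CPM (SD, n = 5) in adolescents on water with saline, with libraries from 0.754 to 2.38 CPM, and group means elsewhere ran from 0.514 to 0.743 CPM. On water with saline its log2 difference, adult minus adolescent, was -1.53 (edgeR adjusted p = 0.0291). Without adolescent water saline replicate 1, the library with striatal markers, it was -1.40 (adjusted p = 0.0451). The call was lost with only these 2 groups in the fit (adjusted p = 0.21), and without adolescent water saline replicate 3 (0.0706), adult water saline replicate 3 (0.167) or adult water saline replicate 5 (0.161). In adolescents on water its log2 difference with morphine was -1.40 (edgeR adjusted p = 0.047), which passed in 8 of the 35 fits that leave out 1 library. Averaged over the 4 treatments, the age difference was -0.40 (edgeR adjusted p = 0.155).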
